A study of Mus musculus with 6 samples.

Results

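Heterotrimeric G proteins and the RGS proteins that switch them off were followed through the gene table as 45 entries of 13724. They were chosen by symbol alone, with no measured value in the rule: 11 alpha subunits (Gna), 5 beta entries (Gnb), 11 gamma subunits (Gng) and 18 RGS entries (Rgs). The immunoprecipitate (IP) held RNA bound to ribosomes whose S6 protein is phosphorylated, a mark that follows neuronal activity, pulled down with an antibody against S6 phosphorylated at sites 244 and 247. The input was the total RNA of the same kind of dissection. Both came from wild type C57Bl6/J mice exposed to warmth, with 3 IP and 3 input libraries numbered by warm challenge 1, 2 and 3. The tissue was the anterior hypothalamus, cut from 0.5 mm brain sections, which the labels call preoptic neurons. No group was kept at another temperature, so no value here can be tied to warmth, and neither how many animals lie behind each library nor whether the IP and input of 1 challenge came from the same animals is given in the sources used here. A statement on each warm challenge rests on the shared number alone. All p-values below thus measure only the spread between these libraries, which may be technical.

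A G-protein-coupled receptor acts on a complex of an alpha subunit and a paired beta and gamma subunit. The alpha subunit then binds GTP and parts from the beta-gamma dimer, and each acts on its own targets: Gs and Golf alpha stimulate adenylyl cyclase, Gi, Go and Gz restrain it, and Gq and G11 activate phospholipase C beta. Beta-gamma dimers open G-protein-gated potassium channels and act on calcium channels. RGS proteins speed GTP hydrolysis by alpha subunits and so shorten the signal, and neurons of the hypothalamus use this machinery to read most neuropeptides and monoamines.

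The values were RPKM (reads scaled to gene length and library size), so levels can be set side by side between genes. Summed RPKM was 374708 to 496125 in IP and 384389 to 476059 in input, and the absolute read depth is unknown. Neuronal markers were abundant in both fractions, with summed levels of 3118 to 6620 RPKM in IP and 3711 to 5138 RPKM in input over 7 listed genes. Most of each sum was Snap25, at 2063 to 5392 RPKM in IP and 2790 to 4144 RPKM in input. Of the 7 folds 5 were positive and 2 negative, and 0 genes were called. The 2 at an unadjusted p under 0.05 (limma) were Nefl and Nefm, with log2 folds of 0.82 and 0.77. The input also held other cells: 8 oligodendrocyte markers summed to 274 to 330 RPKM in IP and 920 to 1040 RPKM in input. All 8 had every IP value below every input value. Of them 7 were called lower in IP (limma, adjusted p under 0.05), against 3.29% of all genes. For 7 astrocyte markers the sums overlapped, at 260 to 275 RPKM in IP and 250 to 362 RPKM in input. Most of each sum was Aldoc, at 206 to 231 RPKM in IP and 189 to 277 RPKM in input. Of the 7 folds 5 were negative and 2 positive, and 0 passed limma's test after adjustment. The 3 at an unadjusted p under 0.05 were Aqp4, Gfap and Gjb6, with log2 folds of -1.14, -1.07 and -0.73. In all 9 activity-induced genes every IP value was above every input value. Of them 8 were called higher in IP, against 0.892% of all genes. Arc fell short of the threshold (log2 fold 1.57, adjusted p = 0.0630, limma). The 3 hemoglobin genes tested were higher in IP too, and with Alas2, which was not tested, they summed to 202 to 567 RPKM in IP and 14.1 to 50.3 RPKM in input. IP 1 stood apart from the other IP libraries in several members, and values without it are given for each member whose call turns on it.

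Few members were called different between the fractions. Rgs20 was higher in IP, while Gna12, Gng11 and Rgs5 were lower (limma on log2(RPKM + 1), adjusted p under 0.05 over all 12328 genes tested). The test covered 43 of the 45 members, those with at least 1 RPKM in 3 or more libraries. On simulated data it recovered 24% of 2-fold and 71% of 4-fold changes, so a member that did not pass may still differ. Few genes were changed there, with independent noise and no shift of whole libraries. The share recovered in these data may therefore be another. At an unadjusted p under 0.05 (limma) there were 13 members, 30.2% of those tested, against 24.4% of all genes. The share of all genes called was 4.19%, made up of 0.892% higher and 3.29% lower, beside 9.30% of the members, and with 4 calls nothing is read as particular to them. The split of all genes depends on the scaling: after median scaling 1.76% were called, 0.925% higher and 0.835% lower, with the same 4 members, and after quantile normalization 129 genes were higher and 124 lower. The median log2 fold of the 43 members was -0.15, against -0.18 over all genes. A lower value in IP means a smaller share of the pulled-down RNA than of the total RNA. It measures neither the number of cells of a type nor the RNA per cell, and its cause was not tested.

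By class, the median log2 fold was -0.37 over 11 alpha subunits, 0.02 over 4 beta subunits, -0.60 over 11 gamma subunits and 0.03 over 17 RGS entries. Scaling all libraries to a common median moved the median of all genes to -0.01, and placed the classes at -0.20, 0.19, -0.43 and 0.21 in the same order. Differences between classes were not tested. In 15 members all 3 IP values lay below all 3 input values, and in 2 members they lay above. These are 34.9% and 4.65% of the members tested, against 23.5% and 6.85% of all genes tested. Without IP 1, 8 members were lower and 2 higher, while 10.2% of all genes were lower and 3.62% higher, 13.8% in all. The 8 were Gna12, Gna13, Gnai2, Gnai3, Gng11, Gngt1, Rgs17 and Rgs5, and the 2 were Gng3 and Rgs20. A fit blocked by warm challenge called the same 4 members as the unblocked one and also Rgs16, beside 1.33% of all genes higher and 3.99% lower, 5.32% in all.

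**Figure D1:**
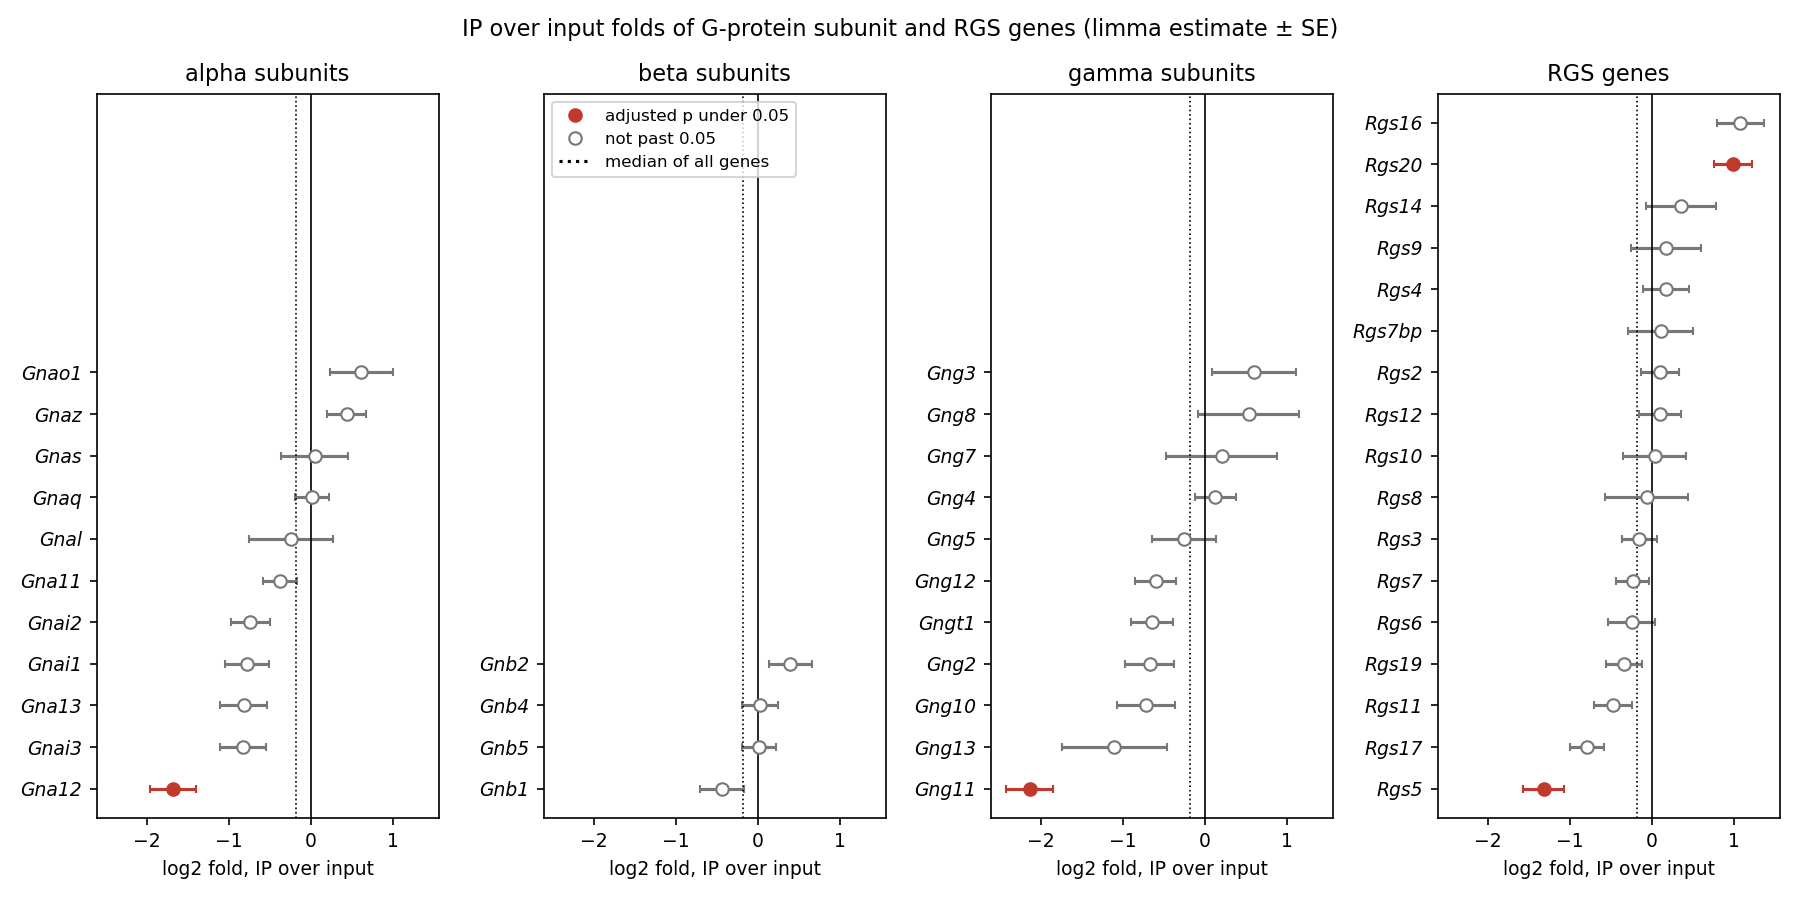
Log2 fold of IP over input on the log2(RPKM + 1) scale (x axis) for each tested member (y axis), in a panel per class, with points for the limma estimate and bars for its SE. Filled points mark Rgs20, Gna12, Gng11 and Rgs5, which passed an adjusted p of 0.05, and the dotted line is the median of all genes, -0.18.

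Among alpha subunits of the G12 family, Gna12 was lower in IP and Gna13 had a negative fold that did not pass. Gna12, a broadly expressed alpha subunit, had 7.05, 4.97 and 3.10 RPKM in IP libraries 1, 2 and 3, against 15.2, 16.3 and 22.0 RPKM in the inputs. Every IP value was less than any input value. The log2 fold was -1.68 (SE 0.28, adjusted p = 0.0235, limma), and IP was lower in all 3 warm challenges. The call ended in 5 of the 6 omissions of 1 library, with adjusted p-values of 0.0605 to 0.0955, and held without IP 1 (0.0094). Its relative Gna13 had 13.9, 5.88 and 8.35 RPKM in IP and 16.6, 15.6 and 16.9 RPKM in input. The groups did not overlap, but the log2 fold of -0.82 did not pass (SE 0.29, adjusted p = 0.122), and without IP 1 it did (adjusted p = 0.0187).

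No member of the Gi/o family passed, and the folds differed in sign between subunits. Gnai1, Gnai2 and Gnai3, the inhibitory subunits found in neurons and glia alike, had log2 folds of -0.77, -0.74 and -0.83, and none passed (adjusted p = 0.121, 0.104 and 0.113). Gnai1 was the most abundant of them, at 89.0, 113 and 135 RPKM in IP and 158, 197 and 222 RPKM in input. Gnai3 was the scarcest, at 12.2, 7.94 and 5.63 RPKM in IP and 14.1, 14.1 and 18.0 RPKM in input. In all 3 genes every IP value was below every input value. Without IP 1, Gnai2 (adjusted p = 0.0264) and Gnai3 (adjusted p = 0.0241) were lower in IP.

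Gnao1, the Go subunit and the second most abundant alpha gene, had 313, 622 and 805 RPKM in IP and 362, 332 and 365 RPKM in input. IP 1 lay below all inputs and the other IP libraries far above them. The log2 fold was 0.61 (SE 0.38, adjusted p = 0.363), and 1.00 without IP 1 (adjusted p = 0.0605). Gnaz, which encodes the pertussis toxin-resistant Gz, had 36.6, 46.9 and 54.4 RPKM in IP and 28.3, 34.1 and 38.1 RPKM in input. IP was higher in each warm challenge, with groups that overlapped, and the log2 fold of 0.44 did not pass (SE 0.23, adjusted p = 0.291).

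Set against each other within a library, where a scaling factor per library cancels out, these genes parted the fractions. The ratio of Gnao1 to the sum of Gnai1, Gnai2 and Gnai3 was 2.05, 3.98 and 4.54 in IP and 1.45, 1.21 and 1.21 in input. For Gnaz over the same sum it was 0.239, 0.3002 and 0.307 in IP and 0.113, 0.124 and 0.126 in input. Both ratios were chosen after the values were seen and carry no test. In IP 1 the Gnao1 ratio stood closest to the inputs, without reaching them. Not every ratio computed in this way parted the fractions. That of Gng3 to Gng2 overlapped, at 2.07, 5.01 and 10.8 in IP and 1.90, 1.79 and 2.32 in input. Gng7 over Gng2 and Gnal over Gnas overlapped too, while Gnaq over Gna11 and Rgs16 over Rgs5 did not. Rgs16 alone lay above all inputs and Rgs5 alone below them, so their ratio could not overlap. How often ratios of other gene pairs part the fractions was not computed.

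No subunit that raises cyclic AMP or activates phospholipase C passed the test. Gnas, the gene of the stimulatory subunit, was the most abundant member of all, at 1306, 1885 and 1068 RPKM in IP and 1128, 1516 and 1399 RPKM in input. These values are per gene, so different transcripts of Gnas are not told apart. The fractions overlapped, and the log2 fold was only 0.05 (SE 0.41, adjusted p = 0.966). Gnal, the Golf subunit of olfactory and striatal neurons, stood at -0.24 on the log2 fold scale (SE 0.51, adjusted p = 0.815) and varied more by warm challenge than by fraction. Gnaq had 59.4 to 66.7 RPKM in IP and 61.8 to 64.3 RPKM in input (log2 fold 0.02, SE 0.21, adjusted p = 0.977). Its close relative Gna11 had 28.4 to 30.1 RPKM in IP and 32.9 to 42.1 RPKM in input. There the groups did not overlap, yet the log2 fold of -0.37 did not pass (adjusted p = 0.299).

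**Figure D2:**
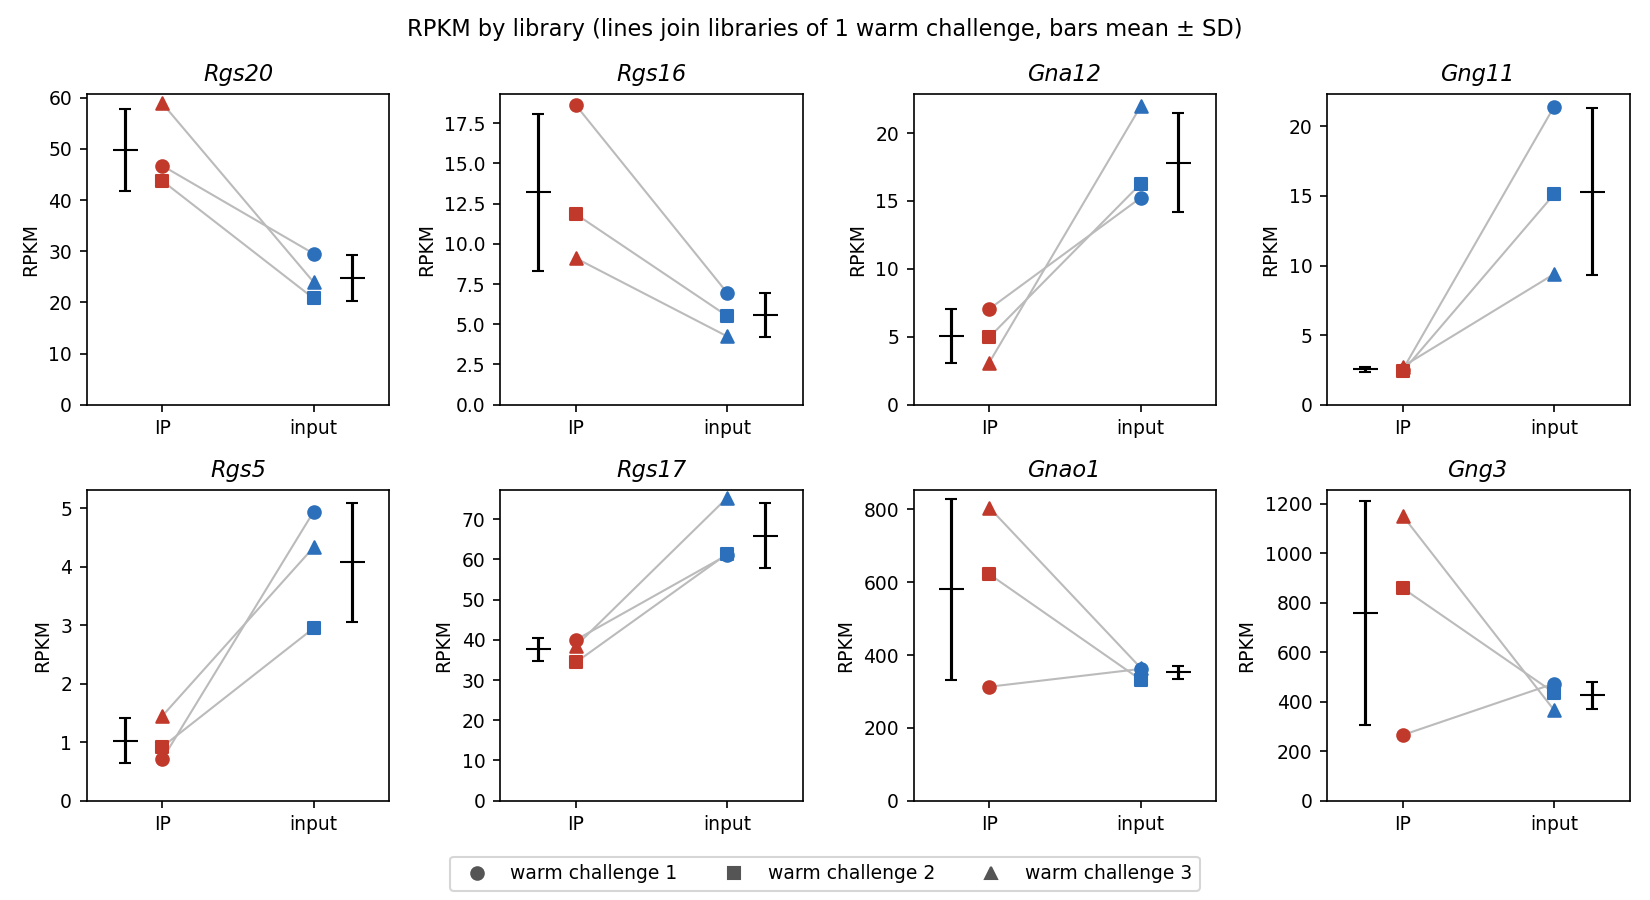
RPKM (y axis) of 8 members in each IP and input library, with marker shapes for the warm challenge, grey lines joining libraries of 1 challenge and black bars for the mean ± SD of 3 libraries. Rgs20 and Rgs16 lie higher and Gna12, Gng11, Rgs5 and Rgs17 lower in every IP library, while Gnao1 and Gng3 are high in IP 2 and IP 3 and low in IP 1.

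No beta subunit passed the test. Gnb1, the main beta subunit, had 249, 280 and 308 RPKM in IP and 394, 362 and 373 RPKM in input. Every IP value was below every input value, and the log2 fold was -0.43 (SE 0.27, adjusted p = 0.353). Gnb2 had 59.4, 68.7 and 49.5 RPKM in IP and 49.8, 55.2 and 31.6 RPKM in input. It was higher in IP in each warm challenge, with overlapping groups, and the log2 fold was 0.40 (SE 0.27, adjusted p = 0.398). The ratio of Gnb2 to Gnb1 was 0.238, 0.246 and 0.160 in IP and 0.126, 0.153 and 0.0848 in input, so the groups did not overlap for the ratio, which was chosen after the values were seen.

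Gnb5, the beta subunit that pairs with RGS proteins of the R7 family in place of a gamma subunit, was steady at 52.5, 54.5 and 59.3 RPKM in IP and 53.6, 57.6 and 53.7 RPKM in input (log2 fold 0.01, SE 0.20, adjusted p = 0.983). Gnb4 had 15.98, 14.0 and 14.9 RPKM in IP and 11.8, 16.2 and 16.4 RPKM in input (log2 fold 0.03, SE 0.22, adjusted p = 0.962). The signs of both folds turned when single libraries were left out. Gnb1l, a WD-repeat gene caught by the symbol pattern, stayed under the filter, at 0.134 to 1.12 RPKM in IP and 0.672 to 1.02 RPKM in input.

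In the fit of all 6 libraries, gamma subunits held both the largest fold of any member and the 3 largest SEs. Gng11, a farnesylated gamma subunit, had 2.51, 2.39 and 2.74 RPKM in IP and 21.4, 15.1 and 9.38 RPKM in input. The IP values were almost level, while those of the inputs differed more than 2-fold. The log2 fold was -2.13 (SE 0.29, adjusted p = 0.0112), and it was called in 5 of 6 omissions of 1 library, the exception being input 2 (adjusted p = 0.0608). Of 7 endothelial markers only Pecam1 was listed, at 0.280 to 0.626 RPKM in IP and 0.408 to 0.607 RPKM in input. Pecam1 stayed under the filter, and the part of endothelial cells in the level of Gng11 was not tested.

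Gng3, the major neuronal gamma subunit, had 265, 859 and 1152 RPKM in IP and 473, 436 and 366 RPKM in input. As with Gnao1, IP 1 lay below every input and both other IP libraries above them. The log2 fold was 0.60 (SE 0.52, adjusted p = 0.515) over all libraries and 1.23 without IP 1, where it was called higher (adjusted p = 0.0463). Gng2, the next most abundant gamma subunit, had 128, 172 and 107 RPKM in IP and 249, 244 and 158 RPKM in input. It was lower in IP in all 3 warm challenges, and its log2 fold of -0.67 did not pass (SE 0.30, adjusted p = 0.204). Gng3 made up 51.0%, 68.0% and 74.9% of the summed gamma RPKM in IP and 48.0%, 47.6% and 50.2% in input.

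Gng13, a gamma subunit known from taste cells and retinal bipolar cells, had 3.06, 21.7 and 9.45 RPKM in IP and 29.4, 33.5 and 8.12 RPKM in input. Its log2 fold of -1.10 had an SE of 0.64 (adjusted p = 0.326). Gng10, a broadly expressed subunit, had 10.98, 26.2 and 31.3 RPKM in IP and 36.0, 40.1 and 30.1 RPKM in input (log2 fold -0.72, SE 0.35, adjusted p = 0.245). For both genes IP 1 was the lowest of the 6 libraries, and in warm challenge 3 IP lay slightly above input. Without IP 1 the log2 folds were -0.46 for Gng13 (adjusted p = 0.615) and -0.29 for Gng10 (adjusted p = 0.377). Gng5 was likewise lowest in IP 1, at 13.9 RPKM, and overlapped otherwise; its log2 fold was -0.26 (adjusted p = 0.732) and 0.18 without IP 1 (adjusted p = 0.708).

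The summed gamma level was lowest in IP 1, with Gng3 as its largest part. IP 1 was the lowest IP library in 7 of the 11 genes, the exceptions being Gng2, Gng8, Gng11 and Gngt1. Gamma subunits summed to 520, 1263 and 1538 RPKM in IP and 986, 918 and 729 RPKM in input, and the median log2 difference over the 11 genes was -0.83 in warm challenge 1, -0.50 in challenge 2 and 0.20 in challenge 3. All genes had medians of -0.22, -0.17 and -0.17 in the same pairs. Beta subunits differed less between the IP libraries and summed to 378, 418 and 432 RPKM in IP and 510, 492 and 476 RPKM in input. The negative median of the gamma class thus does not describe warm challenge 3.

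Gng12 (log2 fold -0.60, adjusted p = 0.180) and Gngt1, the rod transducin gamma subunit (-0.64, adjusted p = 0.165), had every IP value below every input value and did not pass. Gngt1 was scarce, with 0.696 to 2.03 RPKM in IP and 2.16 to 2.71 RPKM in input, and was called lower without IP 1 (adjusted p = 0.0351). Gng4 had 51.3 to 76.7 RPKM in IP and 50.4 to 68.7 RPKM in input (log2 fold 0.13, adjusted p = 0.798).

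**Figure D3:**
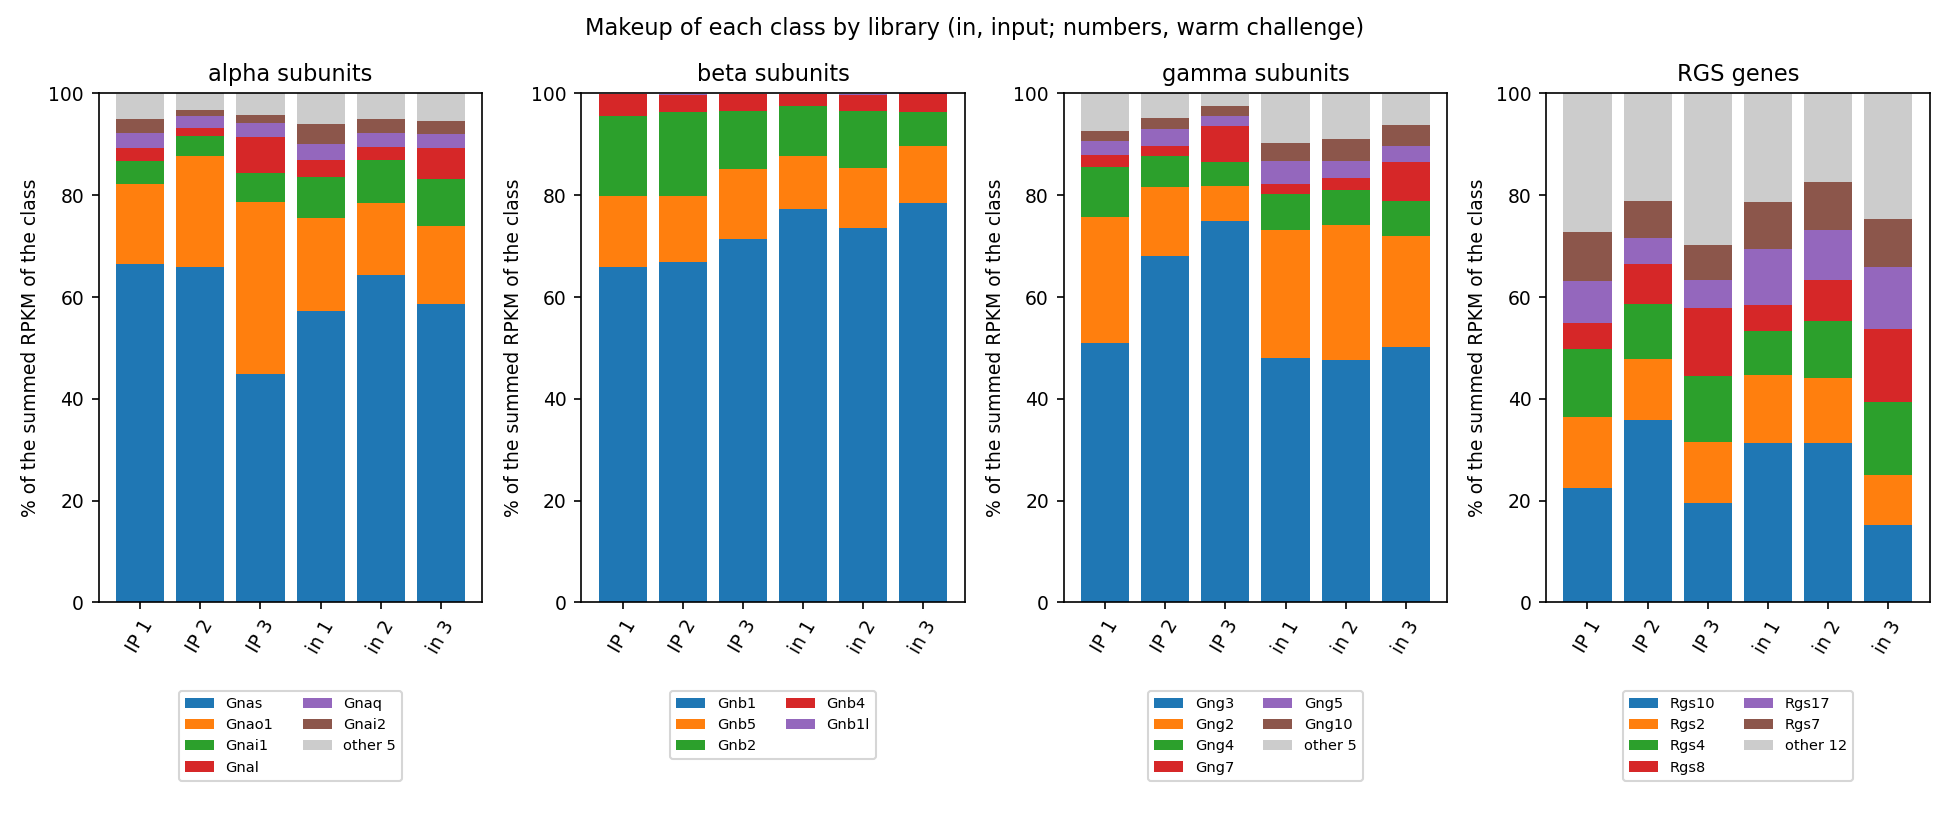
Share of each gene in the summed RPKM of its class (y axis, percent) for each IP and input library (x axis), with the 6 most abundant genes in colour and the rest in grey. Gng3 takes 68.0% and 74.9% of the gamma class in IP 2 and IP 3, Gnao1 takes 33.9% of the alpha class in IP 3, and Gnb1 takes 66.0% to 71.3% of the beta class in IP and 73.6% to 78.5% in input.

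Within the RZ subfamily of RGS genes, Rgs20 was higher in IP while Rgs17 lay below its inputs. Rgs20, an RZ-family RGS protein that acts on Gz and Gi alpha subunits, had 46.7, 43.7 and 58.9 RPKM in IP and 29.5, 20.8 and 23.9 RPKM in input. All IP values lay above all input values, and the log2 fold was 0.98 (SE 0.23, adjusted p = 0.0465, limma). That value is close to the threshold: the call ended with a pseudocount of 0.1, without a mean-variance trend and after quantile normalization (adjusted p = 0.0508 to 0.0567), and in 5 of 6 omissions of 1 library (0.0963 to 0.208), holding without IP 1 (0.0288). Blocking by challenge left the adjusted p at 0.0459.

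Rgs17, the other brain-enriched RZ member, had 40.0, 34.4 and 38.4 RPKM in IP and 61.1, 61.4 and 75.3 RPKM in input. Its log2 fold was -0.79 (SE 0.21, adjusted p = 0.0683), short of the threshold, though without IP 1 it was called lower (adjusted p = 0.0340). Within a library the ratio of Rgs20 to Rgs17 was 1.17, 1.27 and 1.53 in IP and 0.483, 0.338 and 0.318 in input. Rgs20 thus outweighed Rgs17 in each IP library and fell short of it in each input, a comparison chosen after the values were seen. Rgs20 alone lay above all inputs and Rgs17 alone below them, so the ratio could not overlap. Rgs19, the third RZ gene (GAIP), had 15.0, 22.2 and 19.3 RPKM in IP and 25.8, 23.1 and 22.6 RPKM in input (log2 fold -0.34, adjusted p = 0.375).

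In the R4 family, small RGS proteins with little beyond the RGS domain, single genes stood far apart. Rgs16, known for its rhythm in the suprachiasmatic nucleus, had 18.6, 11.9 and 9.11 RPKM in IP and 6.96, 5.52 and 4.25 RPKM in input. IP was higher in all 3 warm challenges, by 1.30, 0.98 and 0.95 on the log2 scale, and the groups did not overlap. The log2 fold of 1.08 had an SE of 0.29 and an adjusted p of 0.0684, which became 0.0372, a call, once the challenge was blocked. It was the member with the largest positive fold in the fit of all 6 libraries.

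Rgs5, widely used as a pericyte marker, had 0.711, 0.921 and 1.45 RPKM in IP and 4.95, 2.95 and 4.34 RPKM in input. All IP values were below all input values, and the log2 fold was -1.32 (SE 0.25, adjusted p = 0.0305). The call ended after quantile normalization (adjusted p = 0.0608) and in 4 of 6 omissions of 1 library (0.0824 to 0.146), and held without IP 1 (0.0250) or IP 3 (0.0488). Of 6 other pericyte markers Abcc9 and Vtn were listed, with summed levels of 1.07 to 1.61 RPKM in IP and 1.02 to 2.32 RPKM in input, and their part in the result was not tested.

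The abundant R4 genes overlapped between fractions. Rgs2, an activity-induced gene in many neurons and a regulator of Gq, had 66.9, 80.4 and 83.5 RPKM in IP and 75.1, 79.7 and 61.3 RPKM in input (log2 fold 0.10, SE 0.23, adjusted p = 0.836). Rgs4 had 63.7, 73.6 and 89.9 RPKM in IP and 47.9, 69.8 and 88.7 RPKM in input. It was higher in IP in each warm challenge, but in challenges 2 and 3 by only 0.07 and 0.02 on the log2 scale, and did not pass (log2 fold 0.17, adjusted p = 0.759). Rgs3 had 4.47 to 5.997 RPKM in IP and 5.31 to 5.95 RPKM in input (log2 fold -0.15, adjusted p = 0.702).

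R7-family members, which work as complexes with Gnb5, did not pass the test. Rgs7, the most abundant of them, had 45.4, 49.4 and 47.8 RPKM in IP and 52.2, 57.8 and 58.6 RPKM in input. The groups did not overlap, yet the log2 fold was only -0.24 (SE 0.20, adjusted p = 0.512). Rgs11 had 0.831, 0.249 and 1.02 RPKM in IP and 1.36, 1.24 and 1.36 RPKM in input, again without overlap (log2 fold -0.47, SE 0.24, adjusted p = 0.252). Rgs6 had 0.581 to 2.25 RPKM in IP and 1.54 to 2.05 RPKM in input (log2 fold -0.25, adjusted p = 0.633).

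Anchor proteins hold these complexes at membranes. Rgs7bp, the plasma membrane anchor of R7 complexes, overlapped between fractions (log2 fold 0.11, SE 0.40, adjusted p = 0.907). Rgs9bp, the photoreceptor anchor of Rgs9, was listed at 0.109 to 0.368 RPKM in IP and 0.391 to 0.688 RPKM in input and was not tested.

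Rgs10, an R12-family gene abundant in microglia and in neurons, was the highest RGS gene on average, at 107, 240 and 135 RPKM in IP and 176, 196 and 93.6 RPKM in input. Its log2 fold was 0.03 (SE 0.38, adjusted p = 0.976). Of 8 microglial markers 7 were listed, with a sum of 6.26 to 10.6 RPKM in IP and 8.09 to 18.6 RPKM in input and a highest single value of 4.99 RPKM, that of C1qb in IP 3. Their part in the level of Rgs10 was not tested. Rgs14, known from hippocampal CA2 neurons, had 1.27, 2.02 and 7.13 RPKM in IP and 2.00, 1.44 and 2.68 RPKM in input. The log2 fold of 0.35 rested on IP 3 and was -0.19 without it (SE 0.43 and adjusted p = 0.661 over all libraries). Rgs12 had 3.26 to 4.21 RPKM in IP and 2.59 to 4.94 RPKM in input (log2 fold 0.09, adjusted p = 0.865).

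In another group of members both libraries of warm challenge 3 were the highest, and no fold between the fractions passed. Gnal had 48.4, 44.9 and 168 RPKM in IP 1, 2 and 3, against 66.2, 63.2 and 146 RPKM in the inputs of the same numbers. Gng7, the gamma subunit that pairs with Golf in striatal neurons, had 12.5, 26.5 and 107 RPKM in IP and 19.7, 21.3 and 56.1 RPKM in input. Both libraries of warm challenge 3 stood above the other 4 in each gene. The log2 difference of IP and input in Gng7 was -0.62, 0.31 and 0.92 in challenges 1, 2 and 3, so it also varied by challenge.

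Rgs9, the R7 member of striatal neurons, showed the same with 11.9, 10.7 and 28.2 RPKM in IP and 9.11, 11.1 and 24.2 RPKM in input. Rgs8, an R4 gene, had 23.5, 51.9 and 92.3 RPKM in IP and 29.3, 50.6 and 87.9 RPKM in input. Rgs7bp had 24.2, 38.3 and 72.3 RPKM in IP and 29.3, 32.6 and 56.3 RPKM in input. For Rgs8 the IP and input of each warm challenge lay close together, whichever the challenge.

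In Gnal, Gng7, Rgs8 and Rgs9 the challenge 3 library was more than 2-fold above the mean of challenges 1 and 2 in both fractions. This held for 4 of the 43 members tested and for 0.957% of all genes tested (118 of 12328). The pattern was picked out after the values were seen, and nothing is read as particular to the members. For 9 listed genes of striatal projection neurons, a list made after the values were seen, the sums were high in the same libraries. They were 84.8, 199 and 1392 RPKM in IP and 134, 143 and 403 RPKM in input, with Penk at 661 RPKM in IP 3. The list was not uniform. In input, challenge 3 was only 1.26, 1.36 and 1.68 times the mean of challenges 1 and 2 for Penk, Gpr6 and Adcy5. The other listed genes were past 2-fold in both fractions. Ppp1r1b, which encodes the striatal phosphoprotein DARPP-32, had 3.23, 42.7 and 376 RPKM in IP and 7.60, 16.1 and 126 RPKM in input. The part of these markers in the members' values was not tested, and with 1 library per fraction and challenge there is no replicate of a challenge.

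The reverse was seen in Gng8, a gamma subunit known from vomeronasal neurons and the habenula, with 21.9, 25.01 and 9.23 RPKM in IP and 26.7, 15.6 and 3.38 RPKM in input. Its log2 fold was 0.53 (SE 0.62, adjusted p = 0.643), and in warm challenge 3 it was lowest in each fraction. The SEs of the folds of Gnal, Gng7, Gng8 and Rgs8 were 0.51 to 0.68, against 0.20 for Gnb5. The unblocked test counts the spread between challenges as error, and when it was blocked none of them passed either (adjusted p = 0.280 to 0.845).

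**Figure D4:**
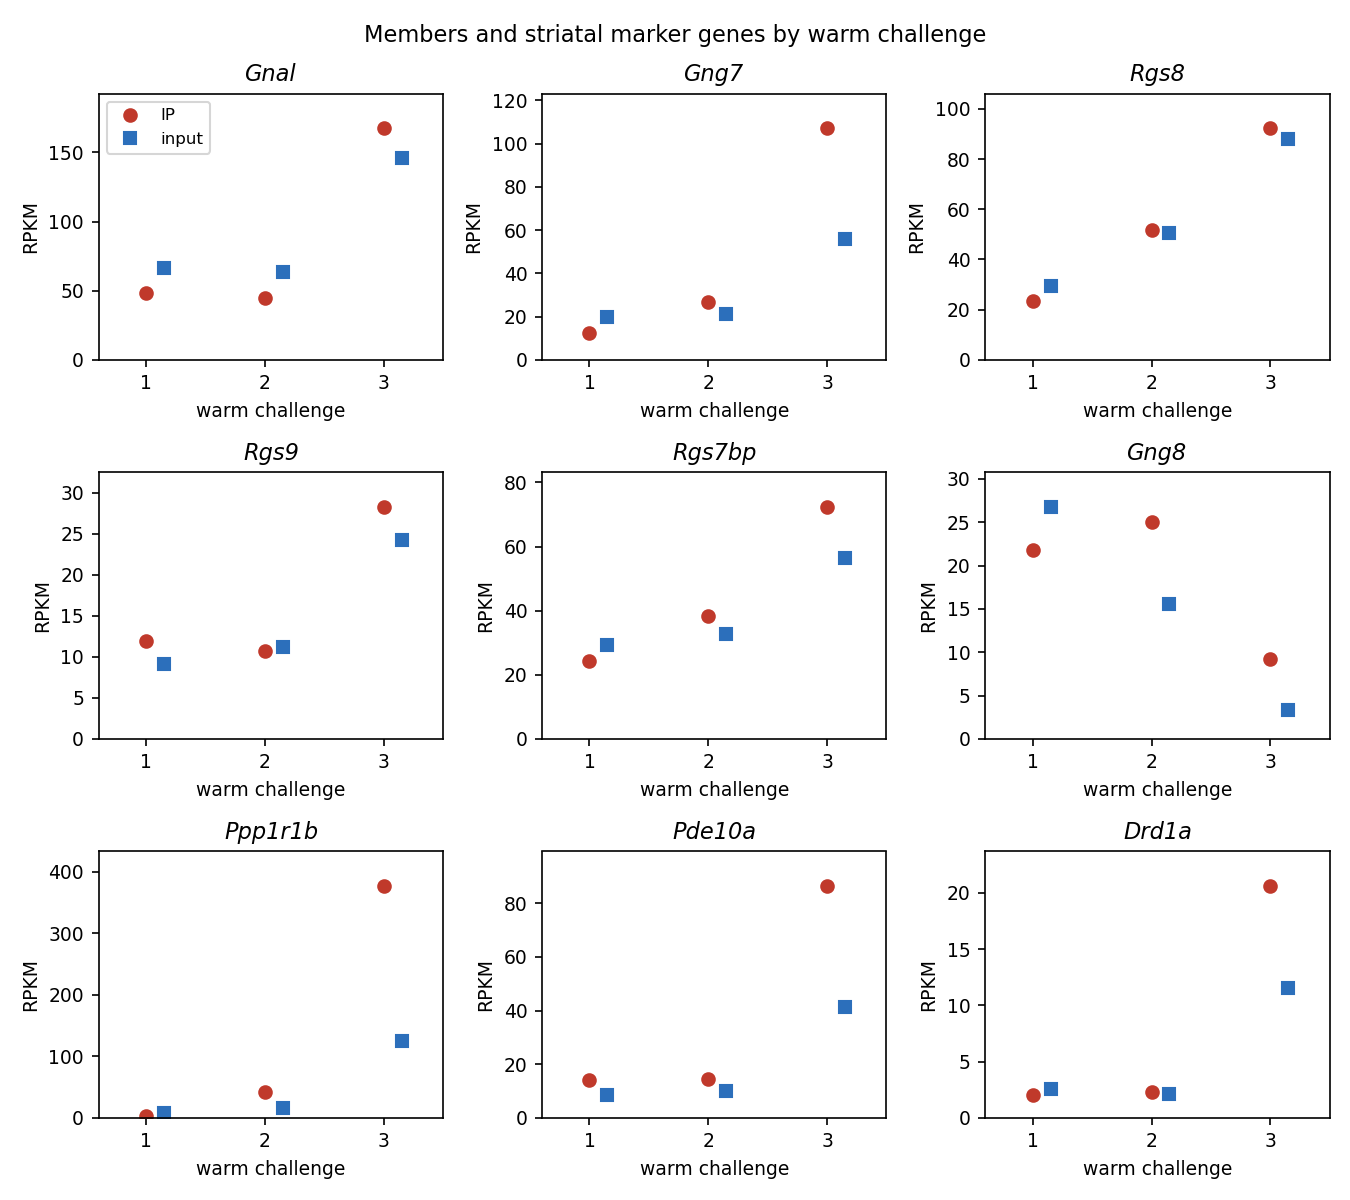
RPKM (y axis) by warm challenge (x axis) in IP (circles) and input (squares) for 6 members and 3 striatal marker genes. Gnal, Gng7, Rgs8, Rgs9 and Rgs7bp are highest in both libraries of warm challenge 3, as are Ppp1r1b, Pde10a and Drd1a, while Gng8 is lowest there.

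Other genes of G-protein signalling were followed as lists of receptor kinases and arrestins, G-protein chaperones and modulators, phospholipase C beta and other effectors, and G-protein-gated potassium channels. Of 24 tested, 1 was higher and 0 were lower in IP, with a median log2 fold of -0.33. Called genes were thus 4.17% of the list and 4.19% of all genes (0.892% higher, 3.29% lower), whose median was -0.18. At an unadjusted p under 0.05 there were 11, 45.8% of the list, against 24.4% of all genes. The higher one was Kcnj3, the GIRK1 channel subunit opened by beta-gamma dimers, at 14.0, 23.9 and 20.6 RPKM in IP and 7.90, 8.04 and 7.66 RPKM in input (log2 fold 1.18, adjusted p = 0.0341). Its call held in 1 of 6 omissions of 1 library, that of IP 1. The other channel subunits did not pass, at log2 folds of -0.65 for Kcnj5, -0.25 for Kcnj6 and -0.03 for Kcnj9.

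Blocked by warm challenge, 3 of these 24 genes were higher and 1 lower, beside 1.33% of all genes higher and 3.99% lower, 5.32% in all. Kcnj3 stayed higher, and Gpr158, a receptor that binds R7 RGS complexes, was added (log2 fold 1.02; unblocked adjusted p = 0.0678, blocked 0.0352); the remaining one is not reported here. The lower one was the receptor kinase Grk4 (log2 fold -1.39; unblocked adjusted p = 0.0662, blocked 0.0345).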

How the data were processed

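Per the file headers, the authors deposited linear RPKM per gene, in 1 column for each of 6 libraries. Reads were processed on mm9, per the submitters' processing notes, while the aligner, counting tool, annotation and use of strand are not given here. Every listed value was at least 0.101 RPKM, so genes at a lower level in any library are missed. By gene spans of the RefSeq table (GRCm38, names only), Gna13, Gnal, Gnb4 and Gng3 overlap other listed genes (Gm11696; Chmp1b and Mppe1; Mfn1; Bscl2), so their reads may be shared and their values are uncertain.

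Values were analysed as log2(RPKM + 1) for genes that reached 1 RPKM in 3 libraries or more, with limma 3.58.1 (mean-variance trend, two-sided, no block) in R 4.3.3, after a test on simulated data, and Benjamini-Hochberg adjustment over all 12328 genes. Folds of low genes are understated on this scale. Python 3.11.15 and matplotlib 3.10.9 served for summaries and plots. IP and input share a warm challenge number in the labels. They were paired on that ground alone, for the block and for statements by challenge, and the main fit did not use the pairs. Deviations from group means correlated by 0.05, 0.61 and 0.27 within challenges 1, 2 and 3. Between challenges they correlated by -0.52 to 0.18, so the value within challenge 1 was not above all of these. The library codes in the file header show no shared number. Alternatives were the block, pseudocounts of 0.1 and 5, no filter or one of 5 RPKM, median scaling, quantile normalization, no trend and omission of each library. The members and lists were chosen with earlier results of these data known. Values in every library are given for members called with or without the block, the 3 largest folds in each direction and the highest input level of each class; other values were added after they were seen. Statements about other settings name only what was run. Not every gene of the lists is reported here.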

Additional observations from a re-analysis of the deposited data

How the results depend on the processing

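Over 43 members and 14 alternatives, 533 of 596 values kept their direction and side of the threshold, 19 lost a call, 7 gained one and 37 turned in sign, all of the last in uncalled genes. The 1 member higher in IP became 2 with the replicate block (Rgs16 added), 0 with a pseudocount of 0.1, with quantile normalization or with no trend, and 0 to 2 on omission of 1 library. The 3 members lower in IP became 0 to 8 on such omissions, namely 1 on omission of input 1, input 3 or IP 2, 0 for input 2, 2 for IP 3 and 8 for IP 1. Calls over all genes went to 217 with median scaling (114 higher, 103 lower), 253 with quantile normalization (129 higher, 124 lower) and 21 to 1693 on omissions, so a call lost there is not particular to these members. Other signalling genes had 3 higher and 1 lower with the replicate block, and 0 to 2 higher and 0 to 5 lower on omissions. Class medians after median scaling were -0.20 (alpha) and 0.19 (beta), and on omissions they ranged from -0.59 to -0.36 (alpha), -0.06 to 0.07 (beta), -0.59 to -0.29 (gamma) and -0.19 to 0.19 (RGS). Folds that turned on omissions ranged from -0.85 to 0.14 for Gnal, -0.013 to 0.070 for Gnaq, -0.18 to 0.23 for Gnas, -0.12 to 0.10 for Gnb4, -0.038 to 0.049 for Gnb5, -0.59 to 0.18 for Gng5, -0.63 to 0.88 for Gng7, -0.23 to 1.10 for Gng8, -0.014 to 0.19 for Rgs2, -0.069 to 0.37 for Rgs4, -0.48 to 0.037 for Rgs6, -0.30 to 0.47 for Rgs7bp, -0.52 to 0.44 for Rgs8, -0.25 to 0.56 for Rgs9, -0.30 to 0.28 for Rgs10, -0.036 to 0.33 for Rgs12 and -0.19 to 0.72 for Rgs14. Signs also turned with median scaling for Rgs3 (0.019) and Rgs8 (0.11), and with quantile normalization for Rgs3 (0.063) and Rgs6 (0.084). The cause was not tested. Median scaling shifts every fold alike. The replicate block changed no other member's call. Depth is unknown, so no counting error can be given, and members near 1 RPKM, such as Rgs5 in IP, Rgs11 and Gngt1, rest on few reads.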
